A study of Mus musculus with 3 samples.

Results

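The 9 genes described here carry the hedgehog signal from the cell surface to the nucleus: the receptors Ptch1, Hhip, Boc and Cdon, the transducers Smo and Sufu, and the transcription factors Gli1, Gli2 and Gli3. They were taken by name from the 43280 gene symbols of each table, and all 9 were found and passed an expression floor, a mean of 5 CPM (counts scaled to a common library size) over the libraries, as did 12127 genes in all. The RNA was polyadenylated and came from primary cells of mouse calvarial (skull-forming) mesenchyme at E15.5, with 1 library for each of 3 genotypes at Ctnnb1, the beta-catenin gene, which acts both in cell adhesion and as the transcriptional arm of Wnt signalling. The library called dTF-cKO was beta-catenin fx/dm with Dermo1-Cre, the library called cKO was beta-catenin fx/fx with Dermo1-Cre, and the control was beta-catenin fx/fx without Cre. All 3 therefore carried at least 1 floxed (fx) allele. What dm stands for is not in the labels; a mouse Ctnnb1 allele of that name encodes a beta-catenin that keeps adhesion and lacks transcriptional output. Dermo1-Cre is a recombinase placed in the Twist2 locus and active in mesenchymal cells. No fx/dm library without Cre was among the 3, so carriage of dm and loss of the floxed allele cannot be told apart, and the labels do not say how many embryos a library pooled.

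In the absence of ligand, the receptor PTCH1 holds the membrane protein SMO inactive, and GLI2 and GLI3 are cut into repressors. Ligand bound to PTCH1, with BOC or CDON as co-receptor, frees SMO, which moves into the primary cilium and releases GLI proteins from their inhibitor SUFU as activators. Gli1, Ptch1 and Hhip are themselves induced by the activators and are the usual transcriptional readouts of the pathway. In the skull, the ligand IHH is made by cells of the bone-forming lineage, and Gli1 marks stem cells of the mouse cranial sutures.

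The libraries held 2678457 to 3634819 counts. There were no replicates, so the differences below are between libraries and allow no test of genotype. Intervals are exact 95% intervals for counting error only, and reads copied by PCR, with no molecular barcodes, do not count independent molecules. The libraries differed in much else. Of 17 measured osteoblast markers, 16 were at least 2-fold lower in the dTF-cKO and 16 in the cKO relative to the control. Over all measured genes, 20.9% were at least 2-fold lower in the dTF-cKO and 6.78% in the cKO. Of 40 mesenchyme genes, 32 were at least 2-fold lower in the dTF-cKO and 4 in the cKO, and their summed level was 18163 CPM (dTF-cKO), 31780 CPM (cKO) and 42214 CPM (control), with none at 0. Among them Pdgfra, a growth factor receptor of mesenchyme, stood at 42.5, 220 and 339 CPM in that order. Epidermal markers summed to 11834, 24795 and 156 CPM in the same order, with 1, 1 and 4 of the 18 markers at 0 counts. The Cre-carrying libraries had 2 counts (dTF-cKO) and 0 counts (cKO) of Xist, against 1233 in the control, and 444 and 362 counts of 4 Y-linked genes, against 0 in the control. Sex-linked expression and genotype cannot be told apart. The targeted gene, Ctnnb1, stood at 442, 745 and 1026 CPM in the dTF-cKO, cKO and control. These counts cover the whole gene and do not separate the alleles, so they check the deletion only in part.

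Gli1 and Hhip, both readouts of the pathway, stood furthest below the control of the 9 genes in the dTF-cKO. Ptch1, the other readout, was less far below it than Gli2 was in the dTF-cKO, and was the next after Hhip and Gli1 in the cKO. Gli1, a transcriptional activator on chromosome 10 (minus strand, 127329882 to 127341974, mm10), had 14 counts in the dTF-cKO, 110 in the cKO and 290 in the control, or 5.002, 38.9 and 81.1 CPM. It was 16.2-fold lower in the dTF-cKO relative to the control (9.51 to 30.0) and 2.08-fold lower in the cKO (1.67 to 2.62). The 3 intervals of its level did not overlap, with the dTF-cKO lowest and the control highest. The cKO difference lies at the edge of the 2-fold rule: its log2 value was -1.05, and scaling by library totals alone gave -0.95.

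Hhip, a membrane protein that captures ligand and dampens the response, lies on chromosome 8 (minus strand, 79965851 to 80058006). It had 7 counts in the dTF-cKO, 42 in the cKO and 123 in the control, or 2.50, 14.9 and 34.4 CPM. It was 13.8-fold lower in the dTF-cKO relative to the control (6.48 to 34.9) and 2.32-fold lower in the cKO (1.62 to 3.37). The order of the libraries was that of Gli1.

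Ptch1, the ligand receptor on chromosome 13 (minus strand, 63508328 to 63573598), had 73 counts in the dTF-cKO, 197 in the cKO and 422 in the control, or 26.1, 69.7 and 118 CPM. It was 4.53-fold lower in the dTF-cKO relative to the control (3.52 to 5.88) and 1.69-fold lower in the cKO (1.43 to 2.02). Both Cre-carrying libraries were below the control, and the cKO difference did not reach 2-fold.

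The co-receptors were closer to the control than the readouts. Boc, an immunoglobulin-family protein that presents ligand to PTCH1, lies on chromosome 16 (minus strand, 44485049 to 44558897). It had 200 counts in the dTF-cKO, 270 in the cKO and 397 in the control, or 71.5, 95.5 and 111 CPM. It was 1.55-fold lower in the dTF-cKO relative to the control (1.31 to 1.85), the smallest difference of the 9 in that comparison. Its ratio of cKO to control was 0.860, with an interval that includes 1 (0.734 to 1.01).

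Cdon, a close relative of Boc with the same role, lies on chromosome 9 (plus strand, 35421128 to 35507652). It had 156 counts in the dTF-cKO, 363 in the cKO and 437 in the control, or 55.7, 128 and 122 CPM. It was 2.19-fold lower in the dTF-cKO relative to the control (1.82 to 2.65), while the ratio of cKO to control was 1.05 (0.911 to 1.21). Cdon was the 1 gene of the 9 with a higher level in the cKO, and that difference lay within counting error.

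Smo, the receptor-like protein that PTCH1 restrains, lies on chromosome 6 (plus strand, 29735503 to 29761365). It had 260 counts in the dTF-cKO, 431 in the cKO and 711 in the control, or 92.9, 152 and 199 CPM. It was 2.14-fold lower in the dTF-cKO relative to the control (1.85 to 2.48) and 1.30-fold lower in the cKO (1.16 to 1.47). Sufu, the cytoplasmic inhibitor of GLI proteins, lies on chromosome 19 (plus strand, 46396896 to 46488804). It had 60, 137 and 218 counts in the dTF-cKO, cKO and control, or 21.4, 48.5 and 61.0 CPM. It was 2.84-fold lower in the dTF-cKO relative to the control (2.13 to 3.85) and 1.26-fold lower in the cKO (1.01 to 1.57). Both transducers were below the control in each Cre-carrying library, by less than 2-fold in the cKO.

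Gli2 and Gli3, the factors that respond to SMO first, stood near the control in the cKO and more than 2-fold below it in the dTF-cKO, as Cdon did. Gli2, the main activator, lies on chromosome 1 (minus strand, 118834132 to 119053619) and had 42 counts in the dTF-cKO, 235 in the cKO and 300 in the control, or 15.0, 83.1 and 83.9 CPM. It was 5.59-fold lower in the dTF-cKO relative to the control (4.04 to 7.92), and its ratio of cKO to control was 0.991 (0.832 to 1.18). Gli3, the main repressor, lies on chromosome 13 (plus strand, 15463235 to 15730026) and had 43 counts in the dTF-cKO, 138 in the cKO and 177 in the control, or 15.4, 48.8 and 49.5 CPM. It was 3.22-fold lower in the dTF-cKO relative to the control (2.30 to 4.61), with a ratio of cKO to control of 0.986 (0.783 to 1.24). For both genes the cKO and control intervals overlapped and the dTF-cKO interval lay below them.

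**Figure D1:**
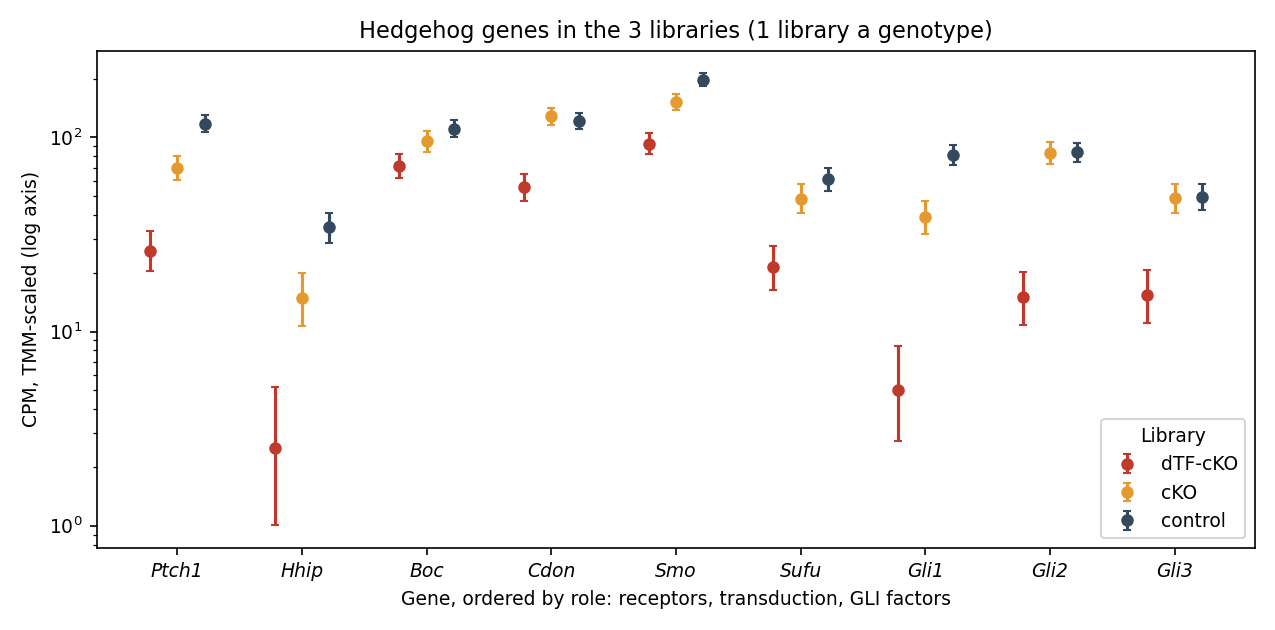
Levels of the 9 hedgehog genes in CPM (log axis) in the dTF-cKO, cKO and control libraries; points are single libraries and bars are exact 95% counting intervals. Gli1 and Hhip stand lowest in the dTF-cKO at 5.002 and 2.50 CPM, while the intervals of Gli2 and Gli3 in the cKO overlap those in the control.

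GLI proteins bind a conserved DNA site, and because Hhip, Ptch1 and Gli2 had the largest fold differences between dTF-cKO and control among the genes with a RefSeq window (GRCm38.p6), their starts are shown, 250 bases before to 50 after, on the gene's strand, with GGGTGG or its reverse complement CCACCC in capitals. The windows are chr8:80057959-80058258 for Hhip, chr13:63565686-63565985 for Ptch1 and chr1:119053570-119053869 for Gli2, all on the minus strand.
Hhip: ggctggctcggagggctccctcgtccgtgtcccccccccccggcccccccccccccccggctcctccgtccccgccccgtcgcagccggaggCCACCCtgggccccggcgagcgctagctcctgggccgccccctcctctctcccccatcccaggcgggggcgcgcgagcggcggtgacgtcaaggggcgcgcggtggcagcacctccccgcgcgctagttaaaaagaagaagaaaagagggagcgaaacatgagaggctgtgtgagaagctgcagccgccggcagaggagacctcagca
Ptch1: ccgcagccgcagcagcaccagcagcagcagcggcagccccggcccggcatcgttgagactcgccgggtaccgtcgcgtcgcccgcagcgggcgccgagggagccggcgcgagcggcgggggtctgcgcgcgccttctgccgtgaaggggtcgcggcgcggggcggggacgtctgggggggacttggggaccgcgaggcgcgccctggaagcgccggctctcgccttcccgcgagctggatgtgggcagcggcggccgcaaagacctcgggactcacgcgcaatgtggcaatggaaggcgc
Gli2: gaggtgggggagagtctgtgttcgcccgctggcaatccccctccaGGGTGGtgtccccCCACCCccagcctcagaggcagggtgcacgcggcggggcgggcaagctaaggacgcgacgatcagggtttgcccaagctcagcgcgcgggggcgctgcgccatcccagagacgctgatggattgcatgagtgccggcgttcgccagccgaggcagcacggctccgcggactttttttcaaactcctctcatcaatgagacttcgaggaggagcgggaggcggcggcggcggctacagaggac
The window of Hhip holds 1 such core, beginning 158 bases before the start, and that of Gli2 holds 2, at 205 and 192 bases before it. Ptch1 has none in this window, which lies inside the gene's GENCODE span, at a start downstream of the outermost one. Of the 7 members with a window, 4 (Gli2, Gli3, Hhip and Smo) hold the core, a string found in 31.5% of all 32851 promoter windows. The longer consensus TGGGTGGTC (reverse complement GACCACCCA) was in 0 of the 7 and in 0.253% of all windows. Both were searched on both strands, and the core lies inside the consensus. A match is a string of letters and not a shown binding site, and these windows hold no distal elements.

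Counted over the 9 genes by the 2-fold rule (a log2 difference of at least 1 in size), 8 were lower in the dTF-cKO relative to the control and 0 higher. Boc was the exception, and the median log2 difference was -1.65. Scaling to mesenchyme genes, described further on, left 2 lower and 1 higher. The median of the 9 was then 0.15, where that of all measured genes was 1.90. Without it, 20.9% of all 12127 measured genes were lower and 19.5% higher by the same rule in that comparison, and their median was 0.06. In the cKO, 2 of the 9, Gli1 and Hhip, were at least 2-fold lower relative to the control and 0 higher (median -0.33), against 6.78% lower and 9.66% higher over all measured genes (median 0.06). The counting interval of the ratio lay below 1 for 9 genes in the dTF-cKO (32.2% of all measured genes) and for 5 in the cKO (19.2%), the 5 being Gli1, Hhip, Ptch1, Smo and Sufu. These comparisons share the control library.

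Set against each other, the Cre-carrying libraries differed most in the GLI factors and Hhip. In the dTF-cKO, Gli1 was 7.78-fold lower than in the cKO (4.44 to 14.7), Hhip 5.94-fold lower (2.64 to 15.7), Gli2 5.54-fold lower (3.98 to 7.89) and Gli3 3.18-fold lower (2.24 to 4.59). Ptch1, Cdon and Sufu were 2.67-fold, 2.30-fold and 2.26-fold lower. Smo at 1.64-fold lower (1.40 to 1.92) and Boc at 1.34-fold lower (1.11 to 1.61) did not reach 2-fold. In all, 7 of the 9 genes passed the 2-fold rule downwards and 0 upwards, with a median log2 difference of -1.40. Mesenchyme scaling left 2 lower and 1 higher with a median of 0.06, where the median of all measured genes was 1.49. Without it, 20.5% of all measured genes were lower, 14.5% higher and their median was 0.01. The counting interval lay below 1 for 9 of the 9 and for 32.5% of all measured genes.

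Mesenchyme genes moved with these results, more so in the dTF-cKO than in the cKO. Their median log2 differences from the control were -2.05 and -0.28. In bulk RNA, fewer cells of a type and less RNA per cell cannot be told apart. A second scaling therefore set the libraries to an equal median ratio over the 40 mesenchyme genes, which does not make the level of each of them equal. It shifted the log2 differences of most genes by about 1.84 in the dTF-cKO against the control, 0.36 in the cKO against the control and 1.48 between the Cre-carrying libraries, so that the medians of all measured genes became 1.90, 0.41 and 1.49. The 40 genes differed widely among themselves: under the first scaling, their log2 differences in the dTF-cKO against the control ran from -4.17 (Cdh11) to 0.03 (Igf2). Those of Gli1 and Hhip, -3.85 and -3.47, lay inside that range. Values under the second scaling say how a gene stood relative to the middle of the mesenchyme list, not to each of its genes.

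On that scale Gli1 and Hhip were still lower in the dTF-cKO, and the other 7 genes were not 2-fold lower. Gli1 had a ratio of dTF-cKO to control of 0.221 (0.119 to 0.377) and a ratio of cKO to control of 0.617 (0.491 to 0.771). Hhip had ratios of 0.261 (0.103 to 0.553) and 0.555 (0.381 to 0.794) for the same comparisons. Ptch1 had 0.792 in the dTF-cKO (0.609 to 1.02) and 0.759 in the cKO (0.638 to 0.901), so its interval in the dTF-cKO reached 1.

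Of the other genes, Gli2 stood below the middle of the mesenchyme list in the dTF-cKO, and the rest stood near or above it. Boc had a ratio of dTF-cKO to control of 2.31 (1.94 to 2.74), Smo 1.67 (1.45 to 1.93) and Cdon 1.63 (1.35 to 1.97). Sufu at 1.26 (0.931 to 1.68) and Gli3 at 1.11 (0.778 to 1.56) had intervals that include 1. Gli2 had a ratio to the control of 0.641 in the dTF-cKO (0.453 to 0.887) and 1.27 in the cKO (1.07 to 1.52). Its ratio of dTF-cKO to cKO was 0.503 (0.353 to 0.701), and that of Gli3 was 0.877 (0.608 to 1.24), with an interval that includes 1. By count, 2 of the 9 were at least 2-fold lower in the dTF-cKO relative to the control and 1, Boc, higher, where 4.35% of all genes were lower and 76.5% higher. In the cKO 0 were lower and 0 higher relative to the control, against 4.24% and 16.3% of all genes. Between the dTF-cKO and the cKO, 2 were lower (Gli1 and Hhip) and 1, Boc, higher, against 5.65% and 67.1%. The part of the mesenchyme, osteoblast and epidermal markers in the results under the first scaling was not tested.

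**Figure D2:**
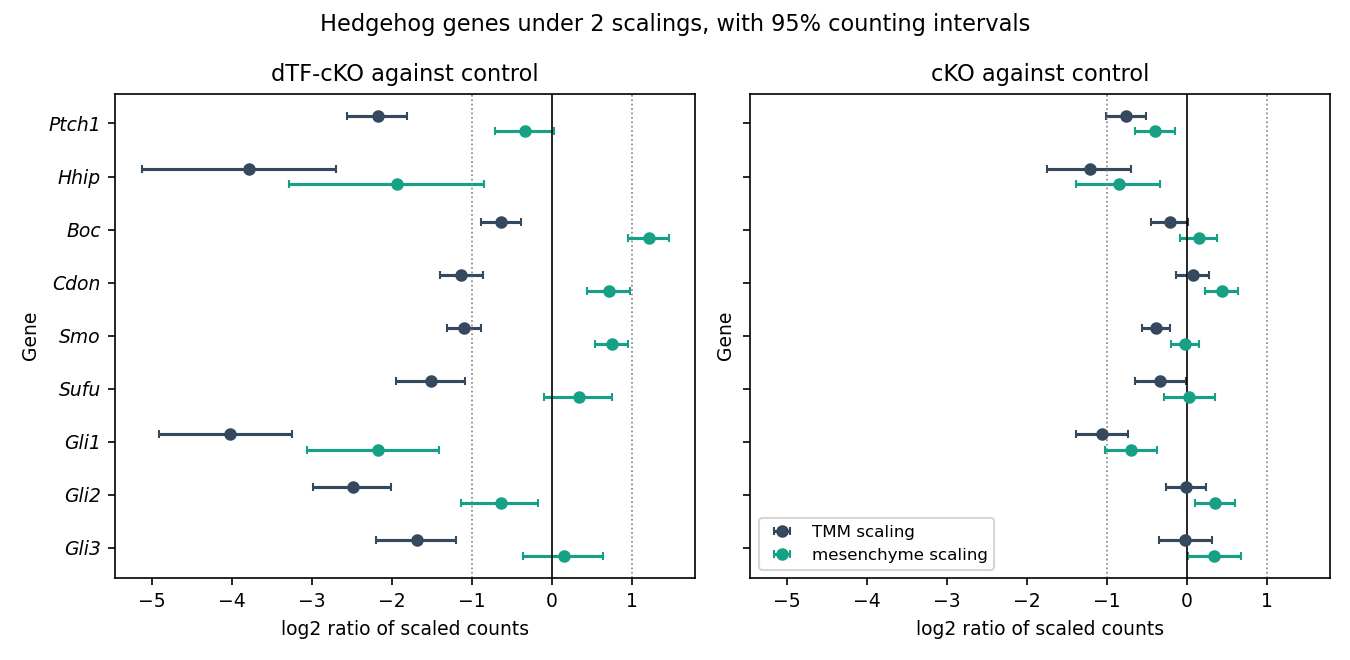
Log2 ratios of the 9 genes for dTF-cKO against control and for cKO against control, with 95% counting intervals, under TMM scaling and under mesenchyme scaling; dotted lines mark 2-fold. Gli1 and Hhip lie left of 0 with their intervals under both scalings and in both comparisons, whereas Smo, Cdon and Boc in the dTF-cKO lie left of 0 under TMM scaling and right of it under mesenchyme scaling.

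Ratios between the 9 genes within a library depend on no scaling. Together, Gli1, Ptch1 and Hhip had 12.4 counts per 100 counts of the other 6 genes in the dTF-cKO (9.86 to 15.3), 22.2 in the cKO (19.7 to 24.9) and 37.3 in the control (34.4 to 40.4). The readouts together thus took less of the counts of the 9 genes in either Cre-carrying library, and the 3 intervals did not overlap. The result depends on the genes set beside them. Smo, Boc and Cdon, with the smallest folds in the dTF-cKO, held most counts of the other 6. Relative to the control, Ptch1 was 4.53-fold lower there and Gli2 5.59-fold lower. Such ratios can also follow the mix of cells, whose part was not tested. For Gli1 alone, counts per 100 of the other 6 were 1.84 (1.001 to 3.11), 6.99 (5.71 to 8.48) and 12.9 (11.4 to 14.6) in the dTF-cKO, cKO and control. For Ptch1 they were 9.59 (7.44 to 12.2), 12.5 (10.7 to 14.5) and 18.8 (16.9 to 20.9), and the intervals of the Cre-carrying libraries overlapped. For Hhip they were 0.920 (0.369 to 1.90), 2.67 (1.92 to 3.62) and 5.49 (4.54 to 6.59), and the first pair of intervals only just stayed apart.

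**Figure D3:**
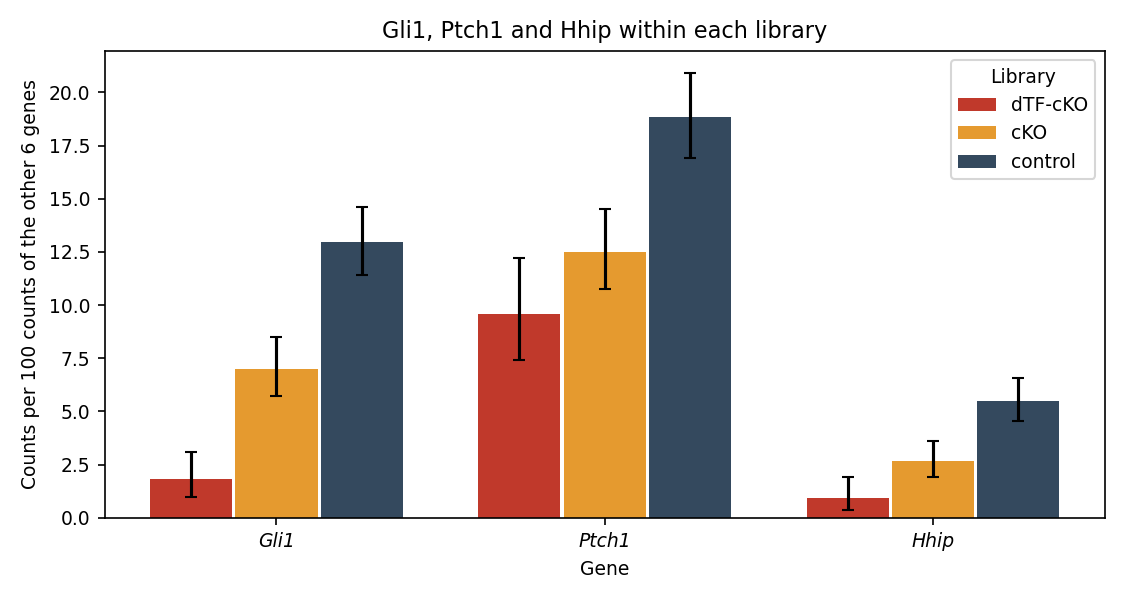
Counts of Gli1, Ptch1 and Hhip per 100 counts of the other 6 hedgehog genes in the dTF-cKO, cKO and control libraries, with exact 95% counting intervals. Each gene is lowest in the dTF-cKO and highest in the control, for Gli1 at 1.84, 6.99 and 12.9.

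Readouts also differed among themselves. Gli1 had 19.2 counts per 100 Ptch1 counts in the dTF-cKO (9.99 to 34.3), 55.8 in the cKO (43.8 to 70.9) and 68.7 in the control (58.97 to 80.0). The dTF-cKO interval lay below the others, which overlapped. Against Gli2, Gli1 had 33.3 counts per 100 in the dTF-cKO (16.8 to 62.3), 46.8 in the cKO (37.0 to 58.9) and 96.7 in the control (82.0 to 114). Here both Cre-carrying libraries were below the control and overlapped each other. Gli3 per 100 Gli2 counts stood at 102 in the dTF-cKO (65.3 to 161), 58.7 in the cKO (47.2 to 72.8) and 59 in the control (48.7 to 71.3); the dTF-cKO interval overlapped the others. Sufu per 100 Smo counts was 23.1, 31.8 and 30.7, with overlapping intervals.

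The 9 genes summed to 855 counts in the dTF-cKO (305 CPM), 1923 in the cKO (680 CPM) and 3075 in the control (860 CPM). Smo took the largest share in each library, with 30.4% in the dTF-cKO (27.3% to 33.6%), 22.4% in the cKO (20.6% to 24.3%) and 23.1% in the control (21.6% to 24.7%). Boc took 23.4% in the dTF-cKO (20.6% to 26.4%), against 14.0% in the cKO (12.5% to 15.7%) and 12.9% in the control (11.7% to 14.1%). Gli1 took 1.64% in the dTF-cKO (0.898% to 2.73%), 5.72% in the cKO (4.72% to 6.85%) and 9.43% in the control (8.42% to 10.5%).

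Levels were compared between genes as CPM per kilobase of merged exons. In the control, Smo was highest at 35.4 CPM per kilobase, followed by Boc at 24.9, Gli1 at 16.2, Cdon at 15.8, Gli2 at 12.2, Ptch1 at 8.32, Sufu at 7.93, Gli3 at 5.16 and Hhip at 3.79. Gli1 did not differ from Cdon, nor Ptch1 from Sufu, beyond counting error. In the cKO, Smo (27.1), Boc (21.5), Cdon (16.6) and Gli2 (12.1) came first and Gli1 was in the fifth place at 7.79 CPM per kilobase. From Gli1 through Sufu (6.30) and Gli3 (5.09) to Ptch1 (4.91), no gene differed from the next in this order beyond counting error. Gli2 was above Gli1, and Ptch1 above Hhip (1.64), beyond it. In the dTF-cKO, Smo (16.5) and Boc (16.1) did not differ, Cdon followed at 7.22, and Gli1 came second to last at 1.001 CPM per kilobase, above Hhip at 0.276. From Sufu (2.79) through Gli2 (2.18), Ptch1 (1.84) and Gli3 (1.60) to Gli1, no gene differed from the next beyond counting error, while Cdon was above Sufu and Gli1 above Hhip beyond it. With the longest transcript as the length, Gli1 came after Sufu in the cKO, at 9.59 against 10.7 CPM per kilobase. Smo and Boc led in all 3 libraries by either length.

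The other genes of the pathway were counted by the same rule, to be read against the shares over all measured genes given above: 20.9% lower and 19.5% higher in the dTF-cKO and 6.78% lower and 9.66% higher in the cKO, each against the control. Among genes for ligands and their release, more were lower than higher. Of 8 such genes, 6 were measured: 4 were at least 2-fold lower in the dTF-cKO relative to the control and 0 higher (median log2 difference -1.31, the same with a gene at 0 counts set to its bound), and 2 were lower in the cKO and 0 higher (median -0.62). Ihh, the ligand of bone and cartilage cells, had 0 counts in the dTF-cKO, 7 in the cKO and 57 in the control. In the dTF-cKO Ihh was lower than in the control with a counting interval that began at 11.7-fold. Taking 3 counts as the limit that a count of 0 allows, and the control count as exact, gave a bound of 14.9-fold. In the cKO Ihh was 6.44-fold lower than in the control (2.93 to 16.7). Markers of hypertrophic chondrocytes, a source of Ihh, moved with it: the 6 measured of 7, Ihh among them, were all at least 2-fold lower in the dTF-cKO and in the cKO. Their list summed to 25.7 CPM in the dTF-cKO, with 3 markers at 0, to 593 CPM in the cKO and to 4834 CPM in the control. The defining marker, Col10a1, a collagen of these cells, was not among the 6 and had 0 counts in the dTF-cKO, 20 in the cKO and 9 in the control, and most of the sum in the cKO and the control is Ibsp and Alpl, which osteoblasts also express. Skeletal muscle markers were lower too, 14 of 14 measured in each, at 17.2, 348 and 2138 CPM in the same order. The part of these cells in the Ihh difference was not tested. Scube1, of a family of secreted proteins that help ligand leave the cell, had 20 counts in the dTF-cKO, 25 in the cKO and 98 in the control. It was 3.84-fold lower in the dTF-cKO (2.35 to 6.55) and 3.10-fold lower in the cKO (1.98 to 5.02). Disp1, which exports ligand, was 3.15-fold lower in the dTF-cKO relative to the control (2.31 to 4.35), and Hhat, which adds palmitate to ligand, 2.12-fold lower (1.19 to 3.94). Shh, the ligand of hair placodes among other tissues, had 0, 2 and 0 counts in the dTF-cKO, cKO and control, too few to compare.

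Intracellular regulators went both ways in the dTF-cKO. Of 26 measured, 10 were at least 2-fold lower relative to the control (20.9% of all measured genes were) and 3 higher (19.5% were), with a median of -0.43. In the cKO 0 were lower and 0 higher (median -0.13). Arrb1, an arrestin that binds active SMO, was 5.73-fold lower in the dTF-cKO relative to the control (3.76 to 9.09) and Arrb2, its relative, 3.22-fold lower (1.90 to 5.73). Evc2 and Iqce, which act together at the base of the cilium below SMO, were 3.71-fold (2.69 to 5.22) and 5.65-fold lower (3.44 to 9.84). Kif7, a kinesin that organises GLI proteins at the cilium tip, was 2.97-fold lower (2.02 to 4.47). The 3 higher ones, named after their values were seen, were Csnk1a1, Cul3 and Fbxw11, a kinase and ubiquitin ligase parts that mark GLI proteins for processing or decay among many other substrates. Csnk1a1 had a ratio of dTF-cKO to control of 2.10 (1.91 to 2.31). Between the dTF-cKO and the cKO, 5 regulators of 26 were lower, near the 20.5% of all measured genes, and 1, Dyrk2, a kinase that can phosphorylate GLI2, higher at a ratio of 2.30 (1.69 to 3.16).

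SMO and GLI proteins meet in the primary cilium, and 15 of its 36 measured genes were at least 2-fold lower in the dTF-cKO relative to the control, with 1 higher (median -0.88). Over all measured genes 20.9% were lower and 19.5% higher. In the cKO 0 of the 36 were lower and 0 higher (median -0.07). Rpgrip1l, of the transition zone at the cilium base, had 5 counts in the dTF-cKO, 31 in the cKO and 56 in the control, and was 8.77-fold lower in the dTF-cKO relative to the control (3.54 to 28.1). Ttbk2, a kinase that starts cilium growth, was 5.01-fold lower (2.56 to 10.9). Bbs7, of the BBSome transport complex, had 1 count in the dTF-cKO, 25 in the cKO and 32 in the control (ratio of dTF-cKO to control 0.0399, 0.00098 to 0.239). The higher gene, Kif3a, a motor subunit of ciliary transport, had a ratio of 2.62 in the dTF-cKO (2.05 to 3.37) and 1.03 in the cKO (0.762 to 1.40). Between the dTF-cKO and the cKO, 17 cilium genes were lower and 1 higher (median -0.94), where 20.5% of all measured genes were lower and 14.5% higher.

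Other genes reported as hedgehog targets in mouse tissues had 11 of 17 members measured. In the dTF-cKO 5 were at least 2-fold lower relative to the control and 0 higher (median -0.65), and in the cKO 0 were lower and 0 higher (median -0.17). Ccnd1, a cyclin of cell cycle entry, had 41 counts in the dTF-cKO, 389 in the cKO and 885 in the control. It was 16.9-fold lower in the dTF-cKO relative to the control (12.4 to 23.7) and 1.80-fold lower in the cKO (1.60 to 2.03); Ccnd1 is also a Wnt target. Bcl2, an inhibitor of apoptosis, was 5.43-fold lower in the dTF-cKO relative to the control (3.14 to 10.05), Mycn, a growth-promoting factor, 3.80-fold lower (1.66 to 10.2), and Osr1, a zinc finger gene of mesenchyme, 3.17-fold lower (1.95 to 5.38). Under mesenchyme scaling, which put 75 genes of these 4 lists above the floor in place of 79, 2 were at least 2-fold lower in the dTF-cKO relative to the control, Ccnd1 at a log2 difference of -2.22 and Rpgrip1l at -1.18. In that comparison 39 were higher, as were 76.5% of all genes. With the 79 kept, 5 were lower, the others being Ihh, Bbs7 and Tmem67, a gene of the transition zone, and 38 were higher.

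**Figure D4:**
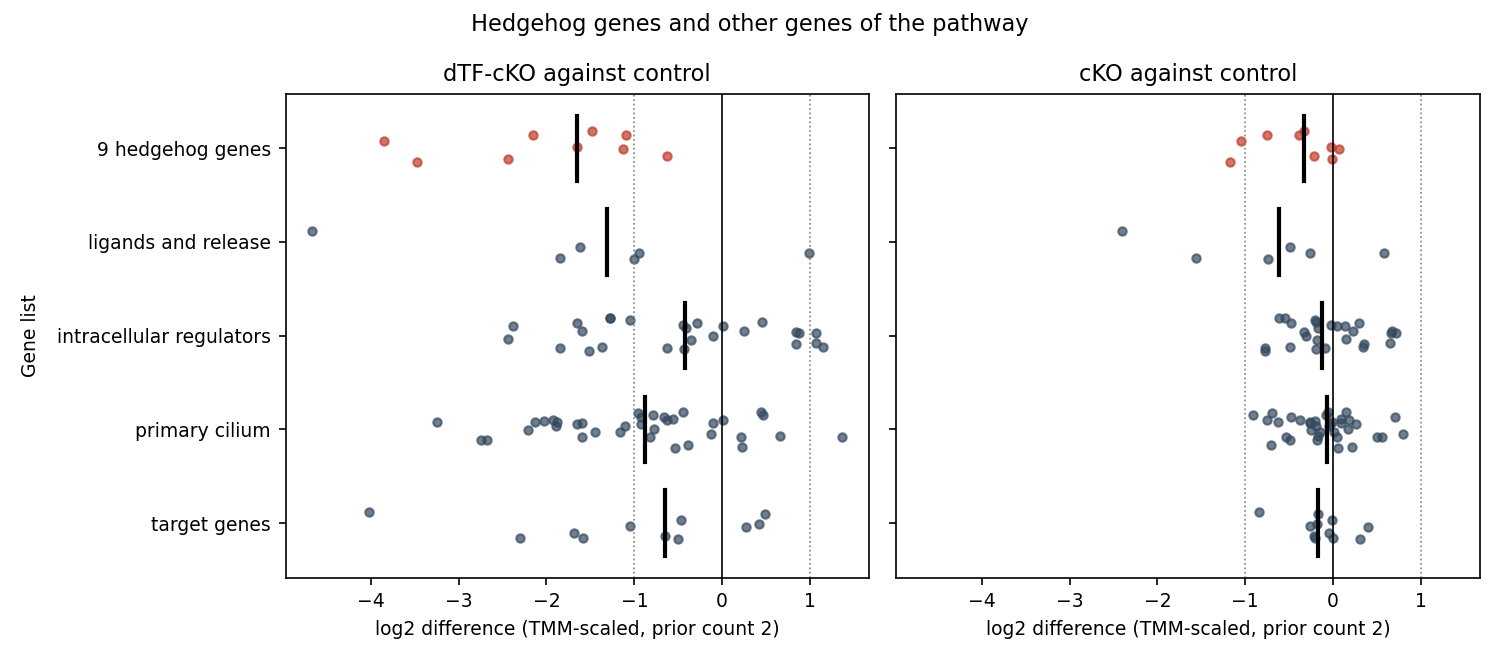
Log2 differences (TMM scaling, prior count 2) of the 9 hedgehog genes and of the measured genes of 4 other pathway lists, for dTF-cKO against control and cKO against control; each point is a gene, black bars are medians and dotted lines mark 2-fold. The medians in the dTF-cKO run from -1.65 for the 9 genes to -0.43 for the intracellular regulators; the point of Ihh, with 0 counts in the dTF-cKO, depends on the prior count.

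The genes nearest in pattern to Gli1 were found by Euclidean distance over the log2 differences of the dTF-cKO and the cKO from the control, that is, over 3 libraries. They were Pcsk6, Epha3, Syne1, Cand2 and St6galnac4, at distances of 0.013 to 0.191. Pcsk6, a proprotein convertase, stood at 21.1, 151 and 315 CPM in the dTF-cKO, cKO and control. Nearest to Ptch1 were Smarcd3, Fmod, Postn, Rab11fip4 and Nfic, at distances of 0.064 to 0.100. Postn, a matrix protein of periosteum and other connective tissue and 1 of the 40 mesenchyme genes, stood at 286, 789 and 1252 CPM in the same order. Likeness over so few libraries is a description of these values.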

How the data were processed

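Gene-level read counts, 1 per gene symbol, were used as deposited by the authors: raw whole numbers, as the file headers and values show. Per the labels' protocols, polyA RNA went into Ion Torrent libraries made with the Ion Total RNA-Seq kit. The submitters' processing notes name the build mm10. Which aligner, counter, annotation and strand option were used is not given in the sources used here. Exons of Gli1, Gli3 and Hhip overlap 62 to 265 bases of genes on the opposite strand (Arhgap9, Gm47200, Gm6556 and Gm27820), whose reads cannot be told apart without strand; those of them in the tables had at most 21 counts. Coordinates and exon lengths are from GENCODE vM21 (GRCm38). In the symbol column 27 entries read as dates, with 0.157% to 0.180% of the counts, and none of these is named.

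Counts were scaled with TMM factors (edgeR 4.0.16, R 4.3.3), which were 0.963 in the dTF-cKO, 1.06 in the cKO and 0.984 in the control. Log2 differences used edgeR's log CPM formula with a prior count of 2. Ratios and folds of named genes are of scaled counts without a prior, with exact conditional 95% intervals (scipy 1.17.1). With 1 library a genotype no test was possible, and the call rule was a 2-fold difference. The interval and calling code was tested on simulated counts with counting error only, which checks the code and not the calls in these libraries. A count of 0 allowed up to 1.07, 1.06 and 0.839 CPM in the dTF-cKO, cKO and control.

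Alternatives were scaling to library totals, DESeq2 1.42.0 size factors, totals that leave out every gene among the 20 most abundant of any library, and mesenchyme scaling. Others were prior counts of 0.5 and 10, no floor and a floor of 20 CPM, call rules of 1.5-fold, 3-fold or a counting interval that excludes 1 and, for levels, longest transcript length. The members, gene lists and rules were chosen with earlier results of these data known. Named genes are the 9 members, and from each pathway list up to 6 genes per comparison called by size with an interval excluding 1, or, with fewer than 2 called, its 2 most abundant. For likeness, genes with a mean of at least 20 CPM and no predicted symbol were eligible. A list of further hedgehog receptors, a protein comparison of the GLI factors and some genes' values are not reported here; of the cell type lists, results are given for osteoblast, mesenchyme, epidermis, hypertrophic chondrocyte and skeletal muscle.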

Additional observations from a re-analysis of the deposited data

How the results depend on the processing

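For the 9 genes, each log2 difference stayed within its counting interval in all 3 comparisons under library totals, DESeq2 size factors and prior counts of 0.5 and 10. Without the genes among the 20 most abundant of any library, 6 of the 27 values, those of Boc, Cdon and Smo in the dTF-cKO, moved lower. Mesenchyme scaling reversed the sign of 7 of the values that had been called 2-fold lower. Against the control in the dTF-cKO, Cdon became 0.70, Smo 0.74, Sufu 0.33 and Gli3 0.15, and in the dTF-cKO against the cKO, Ptch1 became 0.0607, Cdon 0.27 and Sufu 0.30. Of these, only Cdon and Smo against the control had counting intervals that exclude no difference. Mesenchyme scaling put the medians of the 9 at 0.15 (dTF-cKO against control), 0.0306 (cKO against control) and, between dTF-cKO and cKO, 0.0607. The number at least 2-fold lower became 2, 0 and 2 in that order, in place of 8, 2 and 7, and the number higher became 1, 0 and 1, in place of 0 each. For the other pathway lists, the number lower became 2, 1 and 4 in place of 34, 2 and 28, and the number higher 39, 6 and 35 in place of 4, 0 and 2. Over all genes under mesenchyme scaling, 4.35%, 4.24% and 5.65% were lower and 76.5%, 16.3% and 67.1% higher in the same order. This scaling shifts all genes and also changes which pass the floor: in an alternative chosen after seeing the data, which kept the genes measured under TMM, 5, 2 and 7 of the other pathway genes were lower and 38, 6 and 35 higher.

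In the cKO against the control, 1 gene was lower under library totals (Hhip), 1 with a floor of 20 CPM (Gli1), 0 with a 3-fold rule and 5 by counting intervals. A 3-fold rule left 5 genes lower in the dTF-cKO against the control and 4 against the cKO. The shares of all measured genes under library totals, the floor of 20 CPM and the 3-fold rule were not counted, so these numbers have no background beside them. The core motif was in 4 promoter windows and the consensus in 0. With longest transcript lengths, the ratio of the highest to the lowest level per kilobase in the control was 13.9, in place of 9.33. No paired analysis was possible because each genotype had 1 library, and for the same reason no library could be left out. The comparison of GLI proteins was not run. With 7 counts of Hhip and 14 of Gli1 in the dTF-cKO, depth limits their folds to the wide intervals given.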
